A study of Fukomys damarensis with 47 samples.

Results

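Cells cultured from the long bones of nonbreeding female Damaraland mole-rats (Fukomys damarensis) were compared between solitaires, which were housed alone, and helpers, which stayed in their natal colony. The members were the vehicle-treated long bone libraries of nonbreeders, 11 of the 47 libraries of the series, from 4 solitaires and 7 helpers. All animals came from a captive colony. Marrow cells of the pooled long bones were plated in medium for bone marrow mesenchymal stromal cells, the adherent cells were kept, and RNA-Seq counts were made after treatment with vehicle. The solitaires were aged 1105, 1133, 1177 and 1231 days. Of the helpers, 4 were aged between 1076 and 1232 days and 3 were younger, at 1003, 1005 and 1006 days. In 3 natal colonies, called G1F, G4F and WEF after the start of their animals' names, 1 solitaire and 1 helper were sampled whose ages differed by 1 day, and these are called sister pairs. Queens, cultures treated with 10 nM estradiol and lumbar vertebrae (LV) are given only beside a long bone value.

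In cooperatively breeding mole-rats, a helper lives under the reproductive control of its queen, whereas a solitaire has neither a queen nor a mate. Comparing the 2 kinds of nonbreeder asks whether living alone, without breeding, goes with a different gene regulation in bone. Adherent marrow cultures hold stromal cells that can form osteoblasts and adipocytes, together with cells of the blood lineage, among them macrophages and the precursors of bone-resorbing osteoclasts.

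The libraries held between 6174122 and 12783119 counts. The first 3 principal components carried 32.1%, 23.7% and 14.3% of the variance, and the libraries at their far ends were mostly helpers: DVF008 on the first, WAF011 on the second and WEF002 on the third, with the solitaire WEF001 opposite DVF008. The stromal gene ENG, the osteoblast gene COL1A1, the osteoclast protease gene CTSK and the leukocyte gene LAPTM5 all had counts in every library. Fewer cells of a type and less RNA per cell cannot be told apart in these bulk cultures.

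No gene differed between solitaires and helpers at an FDR of 10%. Of 10968 genes tested with edgeR's quasi-likelihood method, 0 (0%) passed at either 10% or 20%, and no gene had an adjusted p below 0.968. At an unadjusted p under 0.05, 289 genes (2.63%) were counted, 193 of them with the higher level in solitaires and 96 with the lower. DESeq2's Wald test, on the same genes, called 3 genes at an FDR of 10%: FOSL1, which was lower in solitaires, and the unnamed genes ENSFDAG00000013351 and ENSFDAG00000013841, which were higher. The precision was limited. The 95% interval of the log2 fold change had a median half-width of 0.67, and it lay within a 2-fold change either way for 6155 genes (56.1%), so differences of 2-fold or more were outside the interval for these genes but not for the others.

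**Figure D1:**
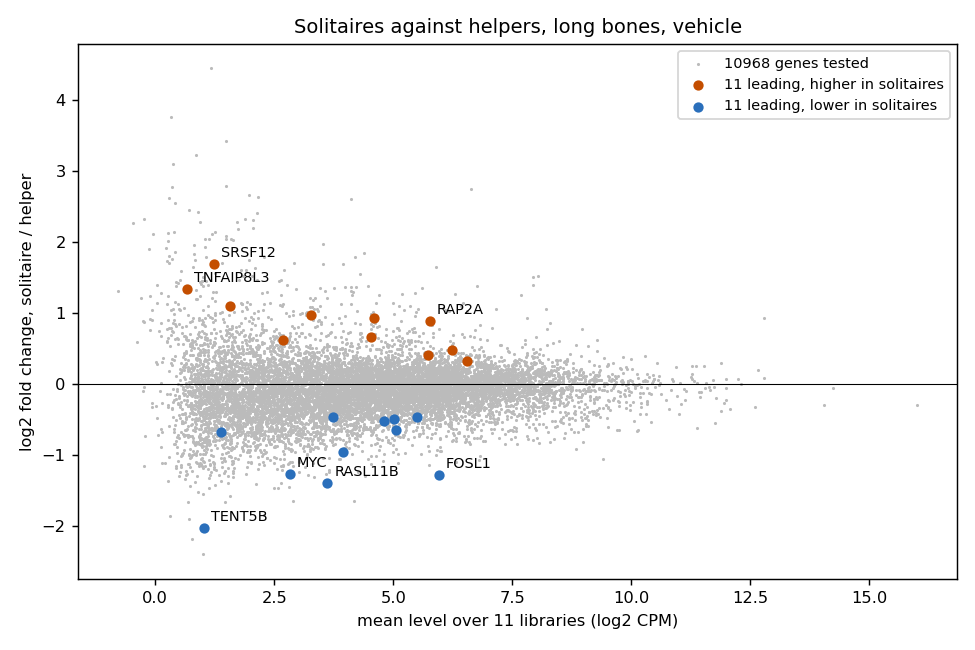
Log2 fold change (solitaire over helper, vertical axis) against the mean level in log2 CPM for the 10968 genes tested in the 11 long bone libraries. The 11 genes with a symbol described for each direction, from those with the smallest p, are coloured, and FOSL1, at -1.29, lies well below most genes of its level.

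The gene with a symbol and the smallest p was FOSL1, which encodes Fra-1, a subunit of the AP-1 transcription factor known for its part in bone matrix formation. Its level, given as log2 CPM (counts scaled to the library's total), was 4.50, 5.06, 5.44 and 5.62 log2 CPM in the solitaires. In the helpers the lowest level was 5.59, the median 6.55 and the highest 6.86. The groups overlapped only through the solitaire MAF003 and the helper NOF007, the lowest helper by a wide margin. The log2 fold change was -1.29 (SE 0.28, 95% interval -1.89 to -0.69, edgeR adjusted p = 0.968, DESeq2 adjusted p = 0.0445). An exact permutation test over the 330 ways to choose 4 of 11 animals gave an unadjusted two-sided p of 0.00606, for a gene that was picked for its small p.

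MYC, a transcription factor gene that drives cell growth and proliferation, did not overlap between the groups. The solitaires had 1.71, 2.15, 2.23 and 2.32 log2 CPM, and the helpers had a lowest level of 2.59, a median of 3.42 and a highest level of 3.88. The log2 fold change was -1.27 (SE 0.32, edgeR adjusted p = 0.968, DESeq2 adjusted p = 0.215). The 4 highest helpers were WEF002 and the 3 youngest animals, and the 3 lowest, at 2.59, 2.80 and 2.88, lay just above the solitaires. Among the 8 animals of at least 1076 days the log2 fold change was -0.98 for MYC and -1.14 for FOSL1.

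Among genes higher in solitaires, RAP2A, a small GTPase of the Ras family, led those with a symbol. It had 5.80, 6.40, 6.41 and 6.79 log2 CPM in the solitaires and a lowest level of 4.82, a median of 5.54 and a highest level of 5.88 in the helpers. Only MAF003 lay within the helpers' range. The log2 fold change was 0.89 (SE 0.22, edgeR adjusted p = 0.968). FBXO33, an F-box protein gene of the ubiquitin ligase machinery, had 3.29, 3.48, 4.19 and 4.48 log2 CPM in solitaires, against a helper median of 2.88 and a highest helper level of 3.30. MAP3K5, a kinase of the stress-activated JNK and p38 pathways, had 4.47, 4.82, 5.58 and 5.88 in solitaires, against a helper median of 4.20 and a highest level of 4.94. In both genes MAF003 was the lowest solitaire, and the groups overlapped.

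**Figure D2:**
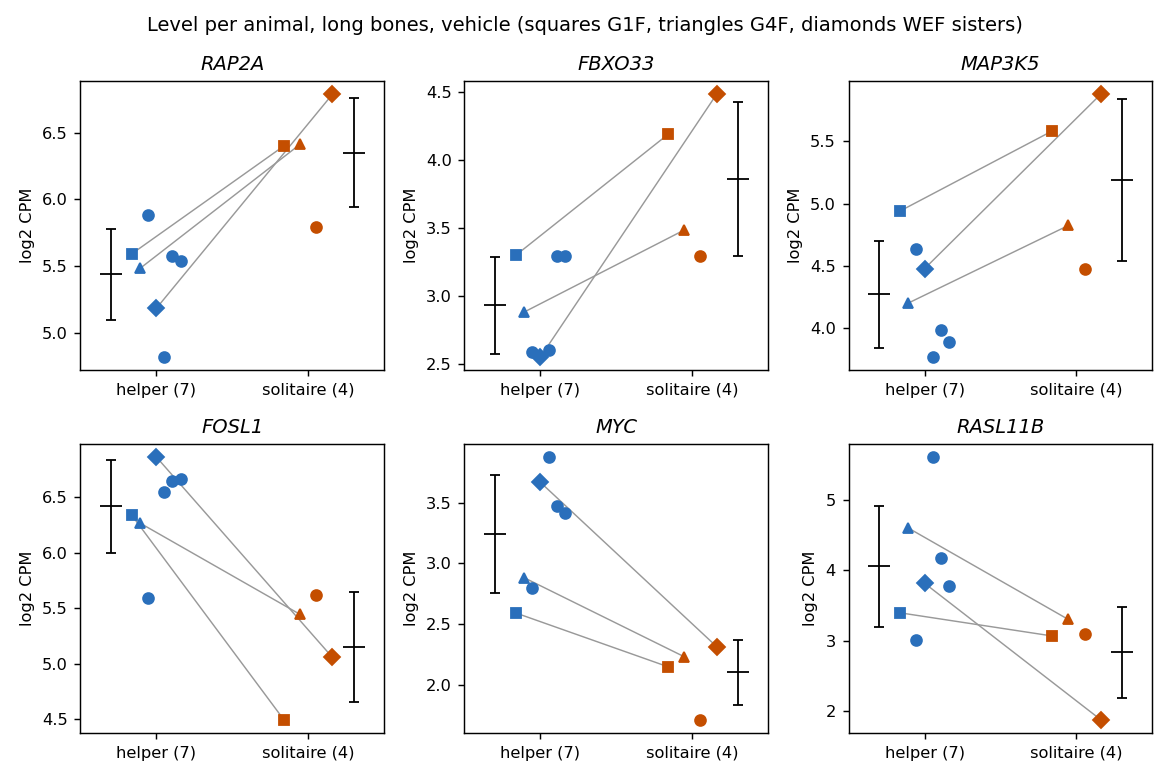
Level in log2 CPM (vertical axis) of 6 leading genes in each of the 7 helpers and 4 solitaires, with black bars for the mean ± SD of each group and grey lines joining the sisters of a pair. MYC is the only 1 of the 6 whose groups do not overlap, and MAF003, the solitaire without a sister, is the lowest solitaire for RAP2A, FBXO33 and MAP3K5.

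The other genes that led in the higher direction had log2 fold changes between 0.33 and 1.69. TNFAIP8L3, a phosphoinositide transfer protein gene, had 1.33 (SE 0.40). The splicing regulators PTBP2 and SRSF12 had 0.66 (SE 0.24) and 1.69 (SE 0.62), and SRSF12 was at 0.73 when the solitaire G1F025 was left out. The nuclear receptor coactivator PNRC1 had 1.10 (SE 0.43), the ubiquitin ligase gene RNF130 0.62 (SE 0.26), the gene ATL1 of the endoplasmic reticulum-shaping GTPase atlastin 0.41 (SE 0.17), and FILIP1L 0.48 (SE 0.22). The smallest of the group was AK3, a mitochondrial adenylate kinase gene, at 0.33 (SE 0.15). AK3 had 6.65, 6.76, 6.82 and 6.87 log2 CPM in the solitaires, just above the highest helper at 6.62, while the lowest helper, WEF002, had 5.86.

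In the lower direction, RASL11B, another Ras-like GTPase gene, had a log2 fold change of -1.40 (SE 0.48). Its 4 solitaires had 1.88, 3.07, 3.09 and 3.30 log2 CPM, and the helpers ran from 3.01 through a median of 3.81 to 5.61 in DVF008. Among animals of at least 1076 days the log2 fold change was -0.94. TENT5B, a nucleotidyltransferase gene, had -2.04 (SE 0.85), and its 3 highest levels, 3.72, 2.43 and 2.35, were those of the 3 youngest helpers, while WEF001 had 0 counts. With age as a covariate its log2 fold change was -1.07. REEP3, which shapes the endoplasmic reticulum, was -0.96 in all 11 animals and -0.38 among animals of at least 1076 days. The groups differ in age. The study also set up some of its helpers later than all of its solitaires, and the labels do not say which. The part of age, time of set-up and length of treatment in these values was not tested.

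Further leading genes had lower levels in solitaires. GEMIN5, of the SMN complex that builds spliceosomal particles, had a log2 fold change of -0.47 (SE 0.20), and PDCD7, of the minor spliceosome, -0.69 (SE 0.32). POLR3K, a subunit of RNA polymerase III, had -0.65 (SE 0.29), and MRM2, a methyltransferase of mitochondrial ribosomal RNA, -0.47 (SE 0.22). PDCD7 had 0.75, 0.92, 0.93 and 1.38 log2 CPM in the solitaires and 1.17 to 1.90 in the helpers, from 13 to 30 counts a library. The phosphatase relative SBF2 had -0.52 (SE 0.18) and the kinase gene MAST4 -0.50 (SE 0.24), which was -0.32 without G1F025. None of the 22 leading genes passed an FDR of 10% in edgeR. No alternative in which its value could be computed turned the sign of any of the 22. The alternatives reuse the libraries in which the 22 were picked for small p, so the kept signs are no independent check. The sizes moved. With queens in the fit and natal colony as a block, 7 of the 22 had at most 0.5 of their value, among them MAP3K5 at 0.29, PTBP2 at 0.23, GEMIN5 at -0.15, SBF2 at -0.18 and TENT5B at -0.28. With the colony block in the 11 libraries this was so for 1, REEP3, at -0.13.

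Among genes without a symbol, ENSFDAG00000013351 had the smallest p in the higher direction. It had 2.31, 3.32, 3.40 and 4.43 log2 CPM in the solitaires and 0.61 to 2.18 in the helpers, with a median of 1.06, so that the groups did not overlap. Its log2 fold change was 2.19 (SE 0.45, edgeR adjusted p = 0.968, DESeq2 adjusted p = 0.0203). ENSFDAG00000013841 also did not overlap, with 5.74, 6.13, 6.22 and 6.28 log2 CPM in the solitaires and 4.86 to 5.53 in the helpers (log2 fold change 0.96, SE 0.20, DESeq2 adjusted p = 0.0320). In the lower direction, ENSFDAG00000005599 had 0.37, 0.82, 0.85 and 1.01 in the solitaires and 1.22 to 2.56 in the helpers, from 9 to 46 counts a library. ENSFDAG00000011783 had 2.05, 2.77, 2.79 and 3.07 against 3.01 to 4.02, and its groups overlapped between 1 solitaire and 1 helper.

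Complete separation of the groups was rare. In 30 genes (0.274%) every solitaire was higher than every helper, and in 13 (0.119%) every solitaire was lower. Random labels on 4 of 11 animals separate a gene in a given direction with a probability of 0.00303. Neither share was above that. Beside MYC and AK3, the only separated gene with a symbol was GLYAT, a mitochondrial glycine acyltransferase gene noted after its values were seen. Its log2 fold change was 0.43 (SE 0.26).

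The sister pairs hold natal colony and age constant. One sign in all 3 pairs was seen in 1340 genes with the solitaire higher (12.2%) and in 1170 with the solitaire lower (10.7%). Neither share was above that of random signs. The difference between sisters had an SD across genes of 0.64 log2 units in pair G1F, 0.63 in pair G4F and 1.17 in pair WEF. In pair WEF, 42.5% of the genes differed by at least 2-fold, against 10.2% in G1F and 8.02% in G4F. Both sisters of pair WEF were among the libraries that stood apart. Across the 10968 genes, which are not independent replicates and share libraries within a pair, the differences correlated at r = 0.16 between G1F and G4F, at -0.14 between G1F and WEF, and at -0.09 between G4F and WEF.

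Of the 22 leading genes, which were chosen with these animals included, all 11 in the higher direction were higher in the solitaire of each pair, and 9 of the 11 in the lower direction were lower in each. FOSL1 was lower in the solitaire sister by 1.84, 0.82 and 1.81 log2 units in pairs G1F, G4F and WEF. MYC was lower by 0.44, 0.65 and 1.35. RAP2A was higher by 0.81, 0.93 and 1.61. The exceptions were REEP3, which was higher by 0.39 in the solitaire of pair WEF, and TENT5B, which was higher by 0.08 in that of pair G1F.

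**Figure D3:**
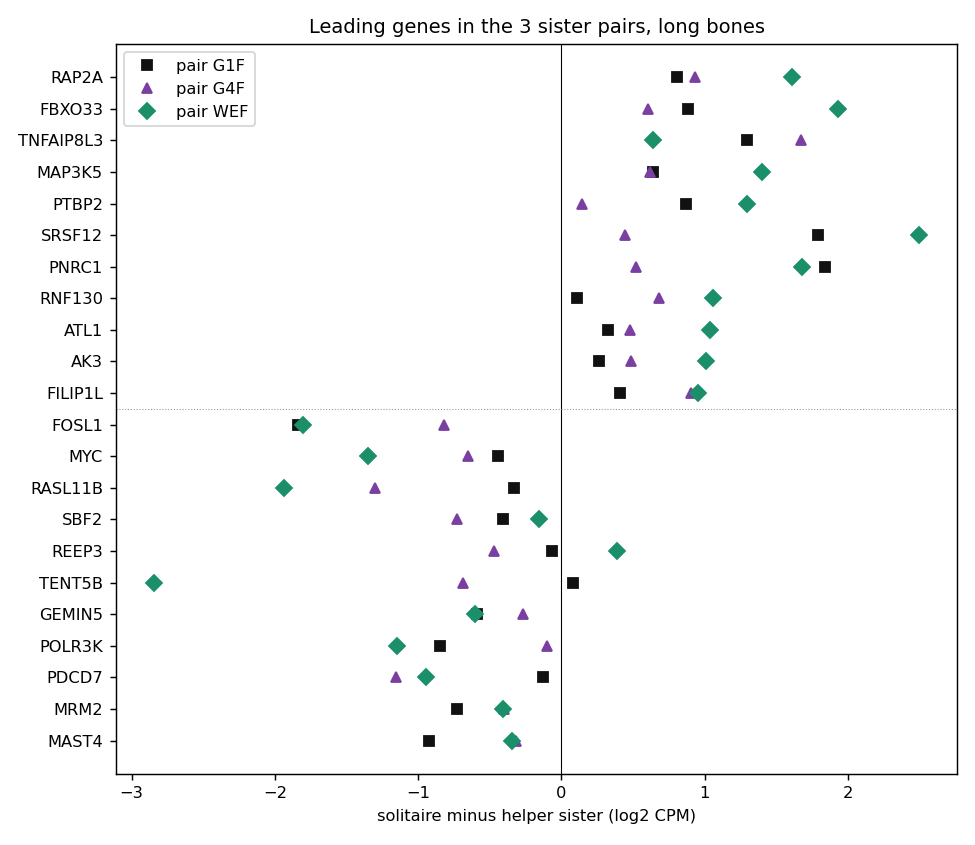
Level of the solitaire minus that of its helper sister in log2 CPM (horizontal axis) for the 22 leading genes, with 1 symbol per pair and the genes with higher levels in solitaires above the dotted line. Pair WEF has the widest difference for RAP2A, FBXO33 and MYC, and REEP3 and TENT5B are the genes with a pair on the other side of 0.

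Of the 10968 genes tested, 27 differed by at least 2-fold in all 3 pairs with the solitaire higher, and 7 with the solitaire lower. The only one of these genes with a symbol was TENT5C, a poly(A) polymerase gene noted after its values were seen. It was higher in the solitaires by 1.55, 1.03 and 1.62 log2 units. Over all 11 animals its log2 fold change was 1.37 (SE 0.77, edgeR adjusted p = 0.968). The helper NOF007, with 1.85 log2 CPM, was above 2 of the solitaires, at 1.42 and 0.77, and nearly level with G1F025, at 1.90.

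No member of the 13 lists of bone, blood, signalling and housekeeping genes had an unadjusted p under 0.05, beside 2.63% of all genes, and 0 passed an FDR of 10%. The medians are read against that of all genes tested, -0.08. The directions are read against 4416 genes higher and 6552 lower among all 10968 tested, so most genes were lower in this fit. Of 16 bone matrix and mineral genes, 3 were higher and 13 lower, with a median log2 fold change of -0.15, which was 0.03 without DVF008. COL1A1, the main chain of bone collagen, had 7.61, 7.94, 7.97 and 9.34 log2 CPM in the solitaires and 7.24 to 10.48 in the helpers, with a log2 fold change of -0.76 and a 95% interval from -1.91 to 0.40. It was higher in the solitaire of pairs G1F and G4F, by 0.73 and 0.92, and lower by 1.63 in that of WEF. SPOCK3, a matrix proteoglycan gene, had 0.72 (SE 0.46), and SERPINF1, which encodes the bone-active factor PEDF, 0.61 (SE 0.40).

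The contractile and smooth muscle genes had a median of -0.41, with 2 of 14 higher and 12 lower. Without DVF008 that median was -0.14. The tropomyosin gene TPM3 had -0.42 (SE 0.20), the focal adhesion gene VCL -0.95 (SE 0.65) and TNS1 -0.56 (SE 0.42). VCL was highest in DVF008, at 8.35 log2 CPM, and its log2 fold change was -0.35 without that library. Of 9 cytosolic ribosome genes 1 was higher and 8 were lower, with a median of -0.34. RPL37A had 7.40, 7.63, 7.70 and 7.92 log2 CPM in the solitaires and 7.64 to 9.57 in the helpers, and the highest was WEF002. Without WEF002 the list's median was 0.06, and the log2 fold changes of RPL37A, RPS21 and RPS26 were -0.35, -0.21 and -0.12 in place of -0.77, -0.65 and -0.53. With WEF002 kept, the median was -0.60 among animals of at least 1076 days and -0.63 with natal colony as a block. In pairs G1F, G4F and WEF the median difference between sisters was -0.34, -0.19 and -1.29. The summed CPM of the list was 3777 to 5035 in the solitaires and 3124 to 11700.2 in the helpers.

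**Figure D4:**
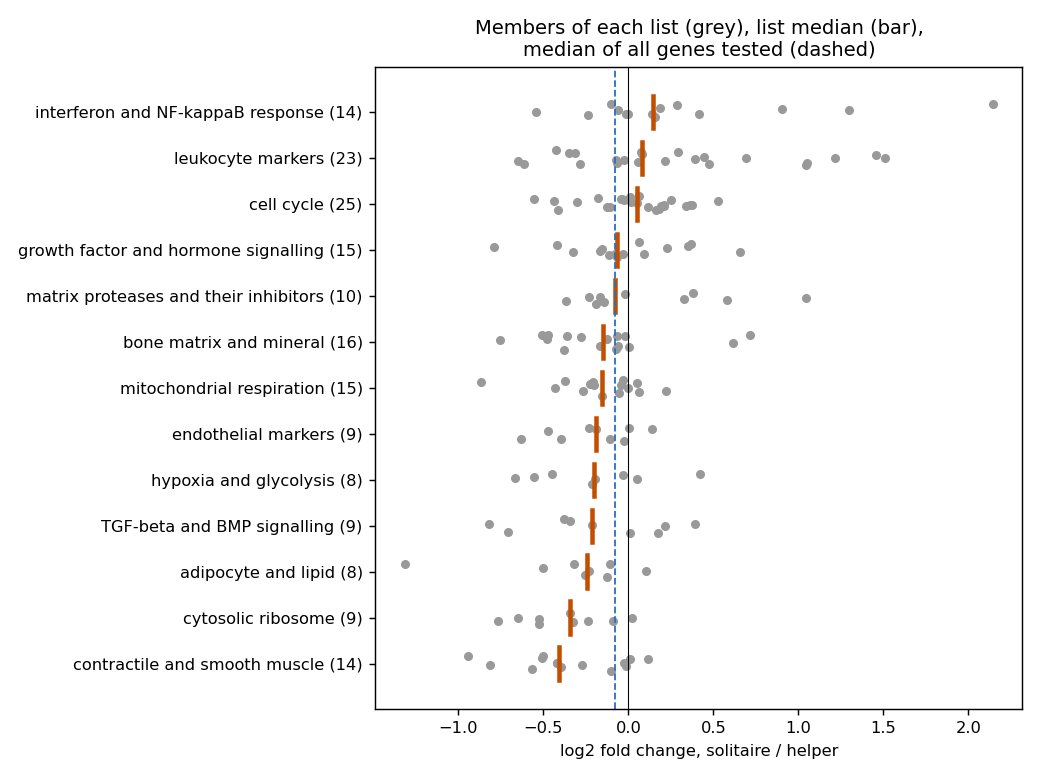
Log2 fold change (solitaire over helper, horizontal axis) of each tested member of the 13 lists, with the list median as a bar and the median of all genes tested, -0.08, as a dashed line. In all 11 animals, medians run from -0.41 for the contractile genes to 0.15 for the interferon and NF-kappaB genes, and members spread on both sides of 0 in every list.

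Blood cell genes differed widely among the animals. Of 23 leukocyte markers, 14 were higher and 9 lower in solitaires, with a median of 0.08 over all 11 animals and of -0.23 over those of at least 1076 days. Their summed CPM was 411 to 1298 in the solitaires and 159 to 1175 in the helpers. LAPTM5, a lysosomal membrane protein of blood cells, had 6.89, 6.98, 7.18 and 8.58 log2 CPM in the solitaires and 4.73 to 8.55 in the helpers, of which the lowest were the young helpers WAF011 and LAF008 (log2 fold change 0.08, 95% interval -1.31 to 1.48), and the sign of its log2 fold change turned in 8 alternatives. The prostaglandin D synthase gene HPGDS had 1.46 (SE 0.78), and PARVG, a parvin of blood cells, 1.51 (SE 0.81). The protease gene CTSS, of antigen-presenting cells, had 1.04 (SE 0.83). All 3 genes had their lowest levels in helpers of the youngest age, for example 2.28, 2.40 and 3.98 log2 CPM for CTSS, of which the last lay just under the lowest solitaire, at 4.12.

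Of 14 interferon and NF-kappaB response genes, 9 were higher and 5 lower, with a median of 0.15, which was -0.05 without G1F025. The chemokine gene CXCL10 had the widest fold change of the lists, 2.15 (SE 1.17). It had -0.16, -0.13, 3.07 and 3.76 log2 CPM in the solitaires and -2.18, the level of 0 counts, in the 3 youngest helpers. The other 4 helpers ran from 0.10 to 2.22, within the range of the solitaires. The chemokine CCL8 had 1.30 (SE 0.93), with -0.70, 0.42, 4.94 and 5.02 log2 CPM in the solitaires and 0.44 to 3.91 in the helpers. Its mean levels were close, 2.42 log2 CPM in the solitaires and 2.32 in the helpers. The complement gene C3 had 0.90 (SE 0.82), with its lowest levels, 0.26, 0.99 and 1.58, in the 3 youngest helpers. The part of age or of blood cell content in these values was not tested.

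The 25 cell cycle genes had a median of 0.05, and of -0.27 without WEF001. Their median difference between sisters was -0.66 in pair G1F, -0.52 in G4F and 1.04 in WEF. The 15 higher members included the centromere gene CENPH at 0.53 (SE 0.32), which was at 0.0063 without WEF001, while HASPIN and KIF22 had -0.56 and -0.41. Of 15 mitochondrial respiration genes 12 were lower (median -0.16), led by the assembly factor gene PET100 at -0.87 (SE 0.42), which was -0.46 without WEF002. FDX1 had -0.37, and SDHAF2 had -0.43 and, without WEF002, -0.09. The list's median without that library was -0.03. The 10 proteases and inhibitors had a median of -0.08, with 4 higher and 6 lower. The cathepsins CTSV and CTSZ had 0.33 and 0.38, but 0.07 without WEF001 and 0.04 without G1F025. Of 9 TGF-beta and BMP genes 5 were lower (median -0.22, and 0.09 without DVF008), with the ligand gene TGFB3 at -0.71, the ligand-binding LTBP1 at -0.34 and the co-receptor TGFBR3 at 0.39. In that list ENG had -0.82 (95% interval -2.53 to 0.89) and 0.11 without DVF008.

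Growth factor and hormone genes had a median of -0.07, with the cytokine receptor IL6ST at 0.66 (SE 0.32) and the steroid dehydrogenase HSD17B11 at 0.35. Of 9 endothelial genes 7 were lower (median -0.19, and 0.21 without DVF008), with FZD4 at -0.63, CDH13 at -0.23 and FLI1 at -0.47. Of 8 adipocyte and lipid genes 7 were lower (median -0.24), with CPT1A at -0.32 and PNPLA2 at -0.51. Of 8 hypoxia and glycolysis genes 6 were lower (median -0.20), with ENO2 at -0.56, PFKFB2 at -0.66 and ERO1A at 0.42. The osteoclast protease CTSK had 7.27, 7.77, 8.25 and 8.29 log2 CPM in the solitaires and 7.74 to 8.64 in the helpers, with a log2 fold change of -0.19 (95% interval -0.76 to 0.37).

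The LV libraries of the same animals, 4 solitaires and 6 helpers, were tested in the same way. Of 10765 genes 0 (0%) passed an FDR of 10% in edgeR, with 919 (8.54%) at an unadjusted p under 0.05, and DESeq2 called 35. FOSL1 had 4.43, 4.76, 4.88 and 5.27 log2 CPM in the solitaires' LV and 5.30 to 7.14 in the helpers', with a log2 fold change of -1.55 (SE 0.40) beside -1.29 in long bones. MYC had 1.30, 1.97, 2.15 and 2.36 against 2.49 to 3.21, with -0.98 (SE 0.29) beside -1.27. Neither gene overlapped between the groups in LV, FOSL1 only narrowly, at 5.27 against 5.30. The share of all LV genes without overlap was not counted. These are the same animals and not independent evidence. RAP2A had 1.06 (SE 0.33) in LV beside 0.89. TNFAIP8L3 had the opposite sign in LV, -1.43 (SE 0.59) beside 1.33.

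The difference of the solitaire effect between bone types was tested within the 10 animals that had both. Of 10936 genes 0 (0%) passed an FDR of 10% in edgeR, and 211 (1.93%) did so at an unadjusted p under 0.05. For FOSL1 the difference, long bones minus LV, was 0.13 (SE 0.44), and for TNFAIP8L3 it was 2.63 (SE 0.69, edgeR adjusted p = 1.00).

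**Figure D5:**
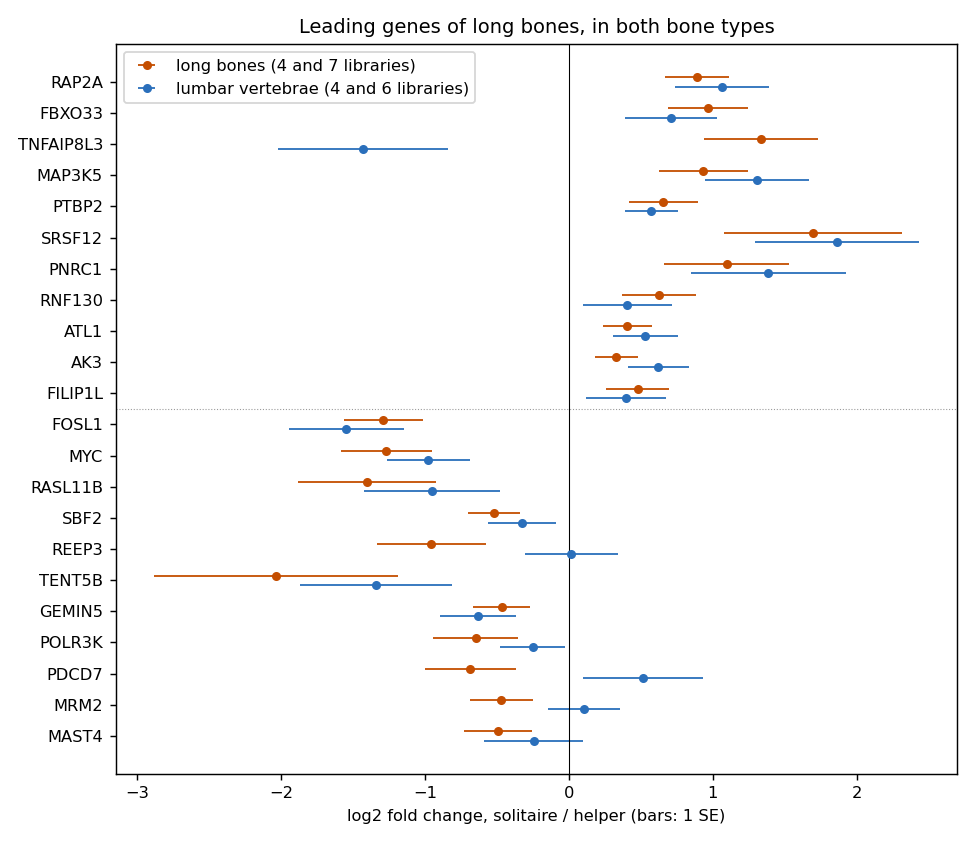
Log2 fold change (solitaire over helper, horizontal axis) of the 22 leading long bone genes in long bones and in LV, with bars of 1 SE. FOSL1 and MYC lie below 0 in both bone types, and TNFAIP8L3, PDCD7, REEP3 and MRM2 lie on opposite sides of 0. REEP3 and MRM2, at 0.01 and 0.10 in LV, do so narrowly.

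In the 5 queens' long bones FOSL1 ran from 5.06 through a median of 6.39 to 6.75 log2 CPM. MYC ran from 3.64 through 3.70 to 3.77, with all queens above the solitaires. Most of the queens were close in age to the youngest helpers, which were among the highest helpers for MYC. The older queens, within the same range of 3.64 to 3.77, lay above the older helpers G1F022, NOF007 and G4F019, at 2.59, 2.80 and 2.88. The older helper WEF002, at 3.67, lay within that range. The part of age in the queens' levels was not tested. The 5 estradiol-treated long bone cultures of helpers had FOSL1 between 4.82 and 7.16 log2 CPM. The only solitaire treated with estradiol, G4F020, had 5.45, beside 5.44 with vehicle.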

How the data were processed

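The deposited table holds raw counts per gene and library. The authors trimmed reads with cutadapt 2.3, aligned them with STAR to DMR_v1.0, and counted uniquely mapped reads on Ensembl genes with HTSeq. The strand setting is not given in the sources used here, so antisense, overlapping and near-identical genes are uncertain.

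The main test was edgeR 4.0.16 (quasi-likelihood, TMM) in R 4.3.3 on 11 libraries, over genes with at least 2 CPM in at least 25% of libraries, with Benjamini-Hochberg adjustment. Levels were computed as log2 CPM (prior count 2) after 1 TMM scaling of all 47 libraries, and log2 fold changes come from the fit. Single levels were compared with exact two-sided permutation tests. DESeq2 1.42.0 was an alternative. The fits were tested on simulated data. The closest 2 libraries of a group had a chi-squared of 32.2 per degree of freedom, so none was a copy. The study regressed out natal colony and used days in culture and relatedness. Days in culture are not in the labels and could not be included.

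Named were the 12 genes with a symbol and the smallest p per direction, 3 per list, COL1A1, CTSK, LAPTM5 and ENG, and up to 2 identifiers per direction. Of these, 4 genes are not reported here. Symbols came from a shortened supplementary table of the study in identifier order, and cover 1115 of the genes tested. The reference table matched 0 identifiers. Natal colony was inferred from animal names, and sisterhood from the study's methods, which report different fathers for the G1 and G4 pairs. Each animal gave 1 library, so p-values measure the spread between animals and their cultures together. Members and lists were chosen with earlier results of these data known.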

Additional observations from a re-analysis of the deposited data

Results flagged for a closer look

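Of 130 groups of levels (each named gene in solitaires and in helpers), 9 had 1 animal far from the others of its group by Dixon's criterion, and chance alone gives about 1 in 20. Among the helpers, WEF002 stood apart in AK3 (5.86 log2 CPM, the others 6.34 to 6.62), ERO1A (7.5, the others 8.49 to 9.12) and RPL37A (9.57, the others 7.64 to 8.45). DVF008 was lowest in CENPH (4.49, the others 5.28 to 5.78). Among the solitaires, WEF001 was lowest in RASL11B (1.88), TENT5B (-2.18) and ENG (0.08), where the others had at least 3.07, 0.42 and 2.51. G1F025 was lowest in POLR3K (4.45, the others 4.79 to 4.83), and G4F020 was highest in HPGDS (2.46, the others 1.22 to 1.32).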

How the results depend on the processing

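The long bone count at an FDR of 10% was 0 with DESeq2's size factors, without a filter, with filterByExpr, in animals of at least 1076 days, with age as a covariate, with estradiol libraries added, without each animal in turn (0 to 0) and, chosen after seeing the data, without DVF008 and WEF002. DESeq2's Wald test gave 3. With natal colony as a replicate block the count was 0 (225 genes at an unadjusted p under 0.05). That fit drew its estimate from the 3 sister pairs alone and had 2 residual degrees of freedom. With queens in the fit as well, the count was 0 (530). The correlation of sisters' deviations from their group means was between -0.003 and 0.30, so the pairing was not clear in the data. Left-out animals moved the genes at an unadjusted p under 0.05 between 160 (without WEF001) and 442 (without G4F020). The LV count was 35 with DESeq2's Wald test, 2 with the replicate block and 0 to 3 without each animal, the 3 being without G4F020. The LV block rested on pairs G4F and WEF alone, since G1F022 had no vehicle LV library. The count for the difference between bone types was 25 without a filter.

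Of 65 named genes 13 changed sign in some alternative. With queens and the colony block COL1A1 was 0.71, CTSK 0.16, LAPTM5 -0.36, ENG 0.11, TGFB3 0.44, LTBP1 0.19, FZD4 0.29, CDH13 0.22, PNPLA2 0.18, CENPH -0.029, ENO2 0.22 and PFKFB2 0.081. With the block alone LAPTM5 was -0.23 and FZD4 0.028. LAPTM5 was -0.43 in animals of at least 1076 days, -0.025 with age and -0.13 with estradiol libraries. Without each animal LAPTM5 ran from -0.50 to 0.41, ENG from -1.05 to 0.11 and C3 from -0.074 to 1.21. The cause was not tested.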
